A study of Homo sapiens with 6 samples.

Results

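Chromatin accessibility was examined at 8 genes of the cholesterol synthesis pathway that the transcription factors SREBP and NF-Y are known to control, HMGCS1, SQLE, FDPS, FDFT1, SREBF2, INSIG1, IDI1 and CYP51A1. No cut on a measured value was used to choose these genes, though earlier results of these data were known. They were chosen by name from 20033 protein-coding genes on chromosomes 1 to 22, X and Y. Every ATAC-seq peak within 1 kb of one of their transcription start sites (TSSs), inside the gene or within 5 kb of it was taken, which gave 24 of 166021 sites after overlapping peaks of the libraries were merged. The data came from HLF, an established human liver cancer cell line, given either DMSO, the vehicle, or 5 μM SNDX-5613 (revumenib), a small molecule that keeps menin from binding the histone methyltransferase MLL1. Each group had 3 libraries, all from the same line and labelled as the same batch. The labels give 24 h of treatment and the study's methods a longer one for this assay, so the time behind the values is uncertain. The comparison asks whether blocking menin alters how open these promoters are.

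Cholesterol is built from acetyl-CoA through mevalonate, isoprenoid units, squalene and lanosterol. When sterols run low in the endoplasmic reticulum, SREBP-2 is carried to the Golgi, cut free and moved to the nucleus, where it binds sterol response elements (SREs) in the promoters of nearly every enzyme of the pathway. SREBP binds these elements weakly alone and works beside NF-Y, a trimer that binds CCAAT boxes, and SP1, which binds GC boxes. When sterols are plentiful, INSIG proteins hold SREBP back. The liver makes much of the body's cholesterol.

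SNDX-5613 replicate 3 stands apart in depth. Its genome-wide background pileup, the typical number of overlapping fragments between peaks, was 0.211 against 0.997 to 1.51 in the other libraries, and it had 40568 peak regions against 88026 to 113675. The main counts, and the differences that it moved most, are therefore given with and without it. Of the hepatocyte markers, ALB, APOA1, HNF4A and CYP3A4 had no promoter peak in any library, SERPINA1 had one in 2 libraries, and TTR and AFP had one in 5 libraries, all but SNDX-5613 replicate 3. The mesenchymal markers VIM, CDH2, FN1 and ZEB1 had one in 6 of 6 libraries, and the leukocyte markers PTPRC and CD3E had none. Both groups thus had no called promoter peak at 4 defining hepatocyte genes.

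All 8 genes had an accessible promoter in all 6 libraries. The main promoter site lay at chr5:43313021-43313902 for HMGCS1, chr8:124997955-124998898 for SQLE, chr1:155308388-155309109 for FDPS, chr8:11802229-11803224 for FDFT1, chr22:41832509-41833296 for SREBF2, chr7:155297232-155298095 for INSIG1, chr10:1048672-1049737 for IDI1 and chr7:92133600-92135090 for CYP51A1 (hg38). The IDI1 site also lies within 1 kb of an annotated TSS of WDR37, though the promoter site taken for WDR37 was another one. The SQLE, INSIG1 and CYP51A1 sites lie within 1 kb of a TSS of a long noncoding RNA gene (SQLE-DT, INSIG1-DT and CYP51A1-AS1). The FDFT1 site lies within 1 kb of a TSS of an unnamed one. Of the 24 sites, 12 had a peak in all 6 libraries, 5 in all but SNDX-5613 replicate 3, 1 in 2 libraries and 6 in 1 library. Of the 24, 0 were gained, meaning present in every SNDX-5613 library and absent from every DMSO one, and 0 were lost, the reverse. Over all sites 0.147% were gained and 1.18% lost. A gain needs a peak in the shallow SNDX-5613 replicate 3 and a loss needs none there, so these shares cannot be set against each other. Without that library again 0 of 24 sites at the genes were gained or lost.

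**Figure D1:**
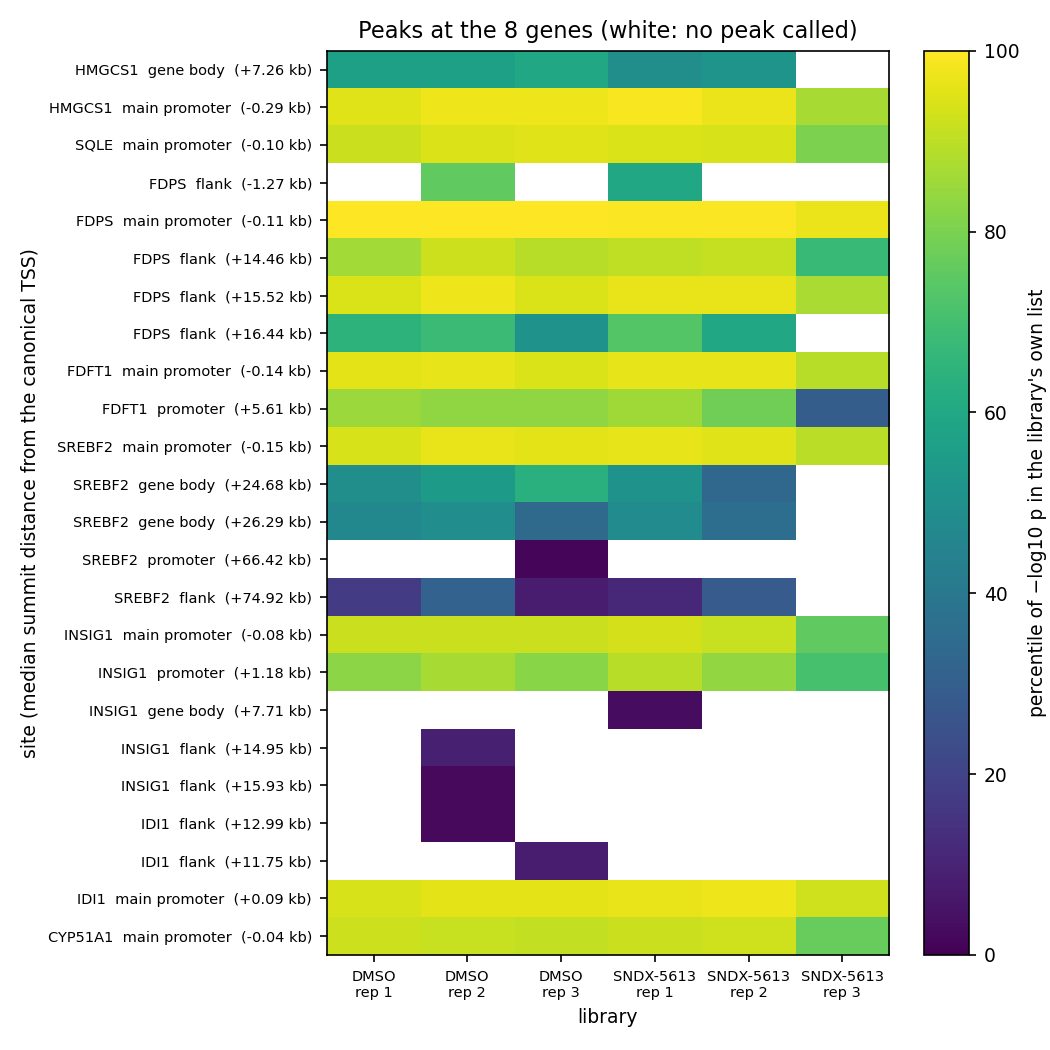
Peaks at the 24 sites (rows, with the median distance of the summit from the canonical TSS) in the 6 libraries (columns). Colour gives the percentile of each peak's -log10 p in its own library's list and white means that no peak was called. The 8 main promoters are filled in every column, and 5 weaker sites are white in SNDX-5613 replicate 3 alone.

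Promoter sequence was searched for the elements that SREBP, NF-Y and SP1 are known to bind. A RefSeq promoter (GRCh38.p14, 250 bases before to 50 after the TSS) was matched for 6 of the 8 genes, and SQLE and FDFT1 were not matched. Searched on both strands, CCAAT stood in 5 of these 6 promoters, all but CYP51A1, against 34.6% of 34943 RefSeq promoters. The longer NF-Y words CCAATCA or CCAATCG or CCAATGA or CCAATGG, which contain CCAAT, stood in the same 5, against 16.6%. The SRE form TCACNCCAC stood exactly in SREBF2 alone, against 1.12% of promoters, and with at most 1 mismatch in FDPS, INSIG1 and SREBF2, against 24.5%. GGGCGG, the GC box, stood in 6 of 6, against 44.9%, and CACGTG, the E-box that SREBP can also bind, in INSIG1 alone, against 7.23%. A match is a description of the letters and no measurement of binding. The genes were chosen as known targets of SREBP and NF-Y. A higher share of these words than in all promoters, here or at the summits, was therefore built into the choice.

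The same words were then counted at the accessible summit itself. In the 201 bases centred on the median summit of the 5 deeper libraries, CCAAT and an SRE form with at most 1 mismatch stood together in 5 of the 6 genes, HMGCS1, FDPS, SREBF2, INSIG1 and IDI1, against 5.72% of 10690 protein-coding promoter windows of that length. An exact SRE form stood in 2 of 6, HMGCS1 and SREBF2, against 0.748%. GGGCGG stood in 5 of 6, all but SREBF2, against 68.5%, and CACGTG in INSIG1 alone, against 8.35%. CYP51A1 held neither CCAAT nor an SRE form there, and its CCAAT at 63 to 67 bp from the TSS lay outside this window. The stretches of these 5 genes are printed because both elements stood in this window, though not always close to the summit. The INSIG1 CCAAT box was a median of 65 bp from the summit in DMSO and 115 bp in SNDX-5613. For the SREBF2 CCAAT box these distances were 35 and 61 bp. Some summits of both genes lie outside the printed stretch. They run in gene direction from hg38, with distances from the canonical TSS, and capitals mark SRE forms and the CCAAT box, which reads ATTGG where it lies on the other strand.

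FDPS chr1:155308680-155308748, plus strand, -186 to -118 bp: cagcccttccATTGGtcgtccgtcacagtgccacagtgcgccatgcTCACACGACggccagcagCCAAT
SREBF2 chr22:41832962-41833013, plus strand, -143 to -92 bp: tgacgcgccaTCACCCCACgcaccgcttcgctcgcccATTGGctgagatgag
HMGCS1 chr5:43313653-43313812, minus strand, -400 to -241 bp: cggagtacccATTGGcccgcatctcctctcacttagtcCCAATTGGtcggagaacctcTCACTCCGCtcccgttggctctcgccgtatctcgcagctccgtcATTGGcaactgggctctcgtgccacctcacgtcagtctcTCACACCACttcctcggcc
INSIG1 chr7:155297660-155297778, plus strand, -218 to -100 bp: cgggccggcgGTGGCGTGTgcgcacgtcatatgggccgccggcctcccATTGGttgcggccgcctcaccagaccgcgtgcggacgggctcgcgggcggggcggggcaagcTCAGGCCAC
IDI1 chr10:1048993-1049018, minus strand, 101 to 126 bp: CCAATTGGccgggcgatGTGGCGTGG

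In FDPS, 9 bases separated the SRE form from the CCAAT box downstream of it and 31 from the one upstream. In SREBF2, the only gene of the set that encodes an SREBP, the exact SRE stood 18 bases from its CCAAT box. HMGCS1 and IDI1 both held CCAATTGG, in which a CCAAT on each strand overlaps, with 12 bases to the SRE form in HMGCS1 and 9 in IDI1. This word was added after the letters were seen. It stood in 0.44% of the promoter summit windows, and with an SRE form in 0.122%. In the RefSeq promoters it stood in 0 of the 6 matched genes, against 0.361% of all promoters. The IDI1 element lies in the first exon of the canonical transcript, and the FDPS and INSIG1 stretches end 1 and 3 bases into the most upstream annotated exon.

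Peak height was read as the pileup at the strongest summit, divided by the library's median pileup over the 33405 sites that had a peak in all 6 libraries. Because it is the stack of fragments at 1 position, it does not depend on gene length. The median of the 8 promoters was 2.77, above the 2.19 of 11063 protein-coding promoter sites, and 7 of the 8 lay above the 50th percentile of those sites. Peak height averages over all cells, so that fewer cells with an open promoter and less opening in each cell cannot be told apart.

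FDPS, whose enzyme makes farnesyl diphosphate, had the tallest promoter peak, at the 97.0th percentile of protein-coding promoters. Its relative heights were 4.39, 4.65 and 4.55 in DMSO and 4.21, 4.15 and 4.0 in SNDX-5613. IDI1, which isomerizes isopentenyl diphosphate, was next at 3.29, 3.42 and 3.67 in DMSO and 3.60, 3.78 and 3.83 in SNDX-5613. The FDPS values lay above all IDI1 values in both groups.

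HMGCS1, which makes HMG-CoA from acetyl units, had heights of 3.03, 3.32 and 3.43 in DMSO and 3.77, 3.23 and 2.67 in SNDX-5613, the lowest being the shallow library. SREBF2, the gene of SREBP-2, had 2.69, 3.06 and 3.04 in DMSO and 2.94, 2.71 and 2.75 in SNDX-5613. FDFT1, squalene synthase, had 2.78, 2.82 and 2.57 in DMSO and 2.66, 2.67 and 2.58 in SNDX-5613. Each of these genes overlapped between the groups, and the DMSO values of neighbours in this order overlapped too.

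SQLE, the squalene epoxidase, had heights of 2.39, 2.53 and 2.71 in DMSO and 2.43, 2.40 and 2.17 in SNDX-5613. INSIG1, which retains SREBP in the endoplasmic reticulum, had 2.63, 2.29 and 2.51 in DMSO and 2.5, 2.36 and 2.25 in SNDX-5613. CYP51A1, the lanosterol demethylase, was lowest with 2.42, 2.01 and 2.12 in DMSO and 2.06, 2.27 and 1.92 in SNDX-5613, at the 48.4th percentile of protein-coding promoters. SQLE and INSIG1 had a gap between their DMSO means of 0.0677, less than their pooled SD of 0.165, and they changed places in SNDX-5613. CYP51A1 was also the widest, with 1356 ± 90.3 bp of peak in DMSO (SD, n = 3), at the 96.3rd percentile of promoter widths, and it had 4 to 6 summits in the 5 deeper libraries.

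**Figure D2:**
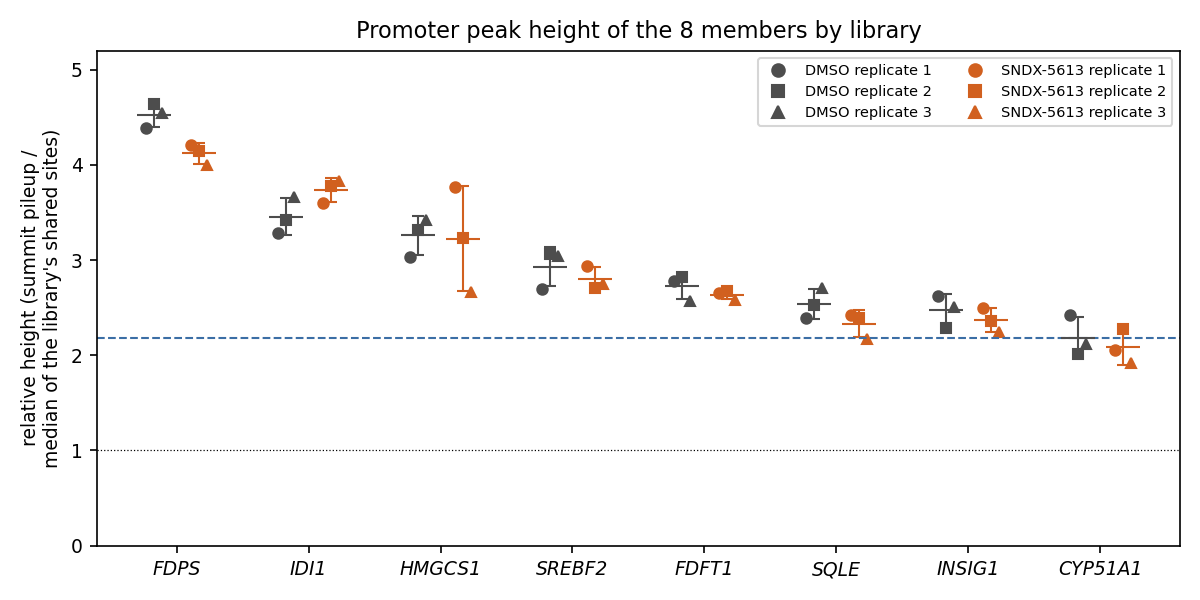
Relative height of the main promoter peak (summit pileup divided by the library's median over shared sites, linear axis from 0) in each library, with group means and SD (n = 3). The dotted line at 1 is the median shared site and the dashed line at 2.19 the median protein-coding promoter. FDPS is the tallest and CYP51A1 the lowest, and FDPS is the one gene with all SNDX-5613 points below all DMSO points.

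No difference in promoter height between SNDX-5613 and DMSO passed the test. In limma on quantile-normalized log2 pileups, 0 of 8 promoters passed an adjusted p of 0.05 in either direction, and 0 of 8 had an unadjusted p under 0.05. Over all 33405 sites 0.982% were called higher and 0.272% lower. The median log2 difference of the 8 was -0.0093, beside -0.010 over all sites. Without SNDX-5613 replicate 3, again 0 of 8 were called, against 2.02% of 59985 sites higher and 1.31% lower. The study's methods describe a replicate as one dish divided between the treated and untreated arms, so these p-values measure the spread between dishes of 1 cell line. The fit did not use such a pairing.

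The 95% intervals of the 8 genes ran from 0.803-fold (FDPS) to 1.24-fold (IDI1) of the DMSO height. The largest log2 differences were -0.15 ± 0.079 (SE) for FDPS, with a 95% interval of -0.32 to 0.012 and an adjusted p of 0.404 in limma, and 0.13 ± 0.087 for IDI1, with an interval of -0.054 to 0.31 and an adjusted p of 0.55 in limma. The difference was -0.066 for SQLE (95% interval -0.29 to 0.16), -0.019 for SREBF2 (-0.22 to 0.19) and -0.012 for CYP51A1 (-0.26 to 0.24). It was -0.0064 for INSIG1 (-0.23 to 0.22), 0.0048 for FDFT1 (-0.21 to 0.22) and -0.00063 for HMGCS1 (-0.23 to 0.23). On fold enrichment in place of pileup the FDPS difference turned to 0.048 (adjusted p = 0.91 in limma). Without SNDX-5613 replicate 3 it was -0.11 for FDPS and 0.12 for IDI1. HMGCS1 depended most on that shallow library, since its difference was 0.13 ± 0.096 without it (adjusted p = 0.564 in limma).

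**Figure D3:**
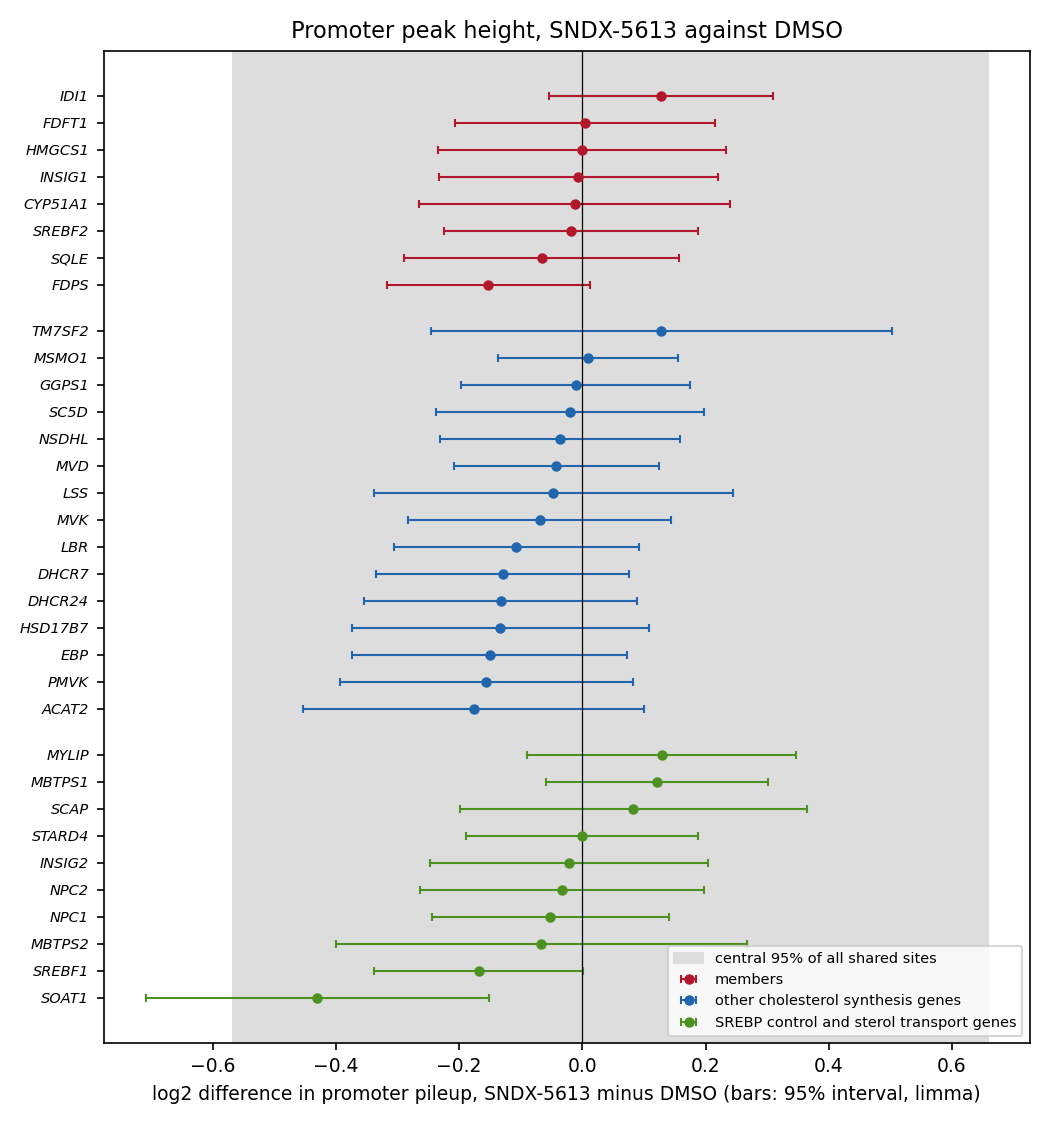
Log2 difference in promoter pileup, SNDX-5613 minus DMSO, with 95% intervals from limma, for the 8 genes (red), 15 other cholesterol synthesis genes (blue) and 10 SREBP control and sterol transport genes (green). The grey band is the central 95% of 33405 shared sites, from -0.57 to 0.66, and it holds the point of all 8 genes. Every interval of the 8 covers 0.

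Ranks by -log10 p overlapped between the groups in 6 genes and not in the other two. Among shared sites FDPS stood at percentiles 99.3, 99.3 and 99.2 in DMSO and 98.3, 98.8 and 96.3 in SNDX-5613, all lower. IDI1 stood at 84.5, 85.8 and 88.7 in DMSO and 89.9, 92.8 and 91.5 in SNDX-5613, all higher. The other genes overlapped between the groups, from 70.4 (INSIG1 in SNDX-5613 replicate 3) to 96.5 (HMGCS1 in SNDX-5613 replicate 1). Thus 1 of 8 was higher and 1 of 8 lower without overlap, where 8.54% of all shared sites were higher and 8.08% lower. Each had an exact two-sided permutation p of 0.1, the smallest that 3 against 3 libraries can give. Without SNDX-5613 replicate 3 the same 2 genes did not overlap, against 14.3% of sites higher and 14.4% lower. Ranked by fold enrichment instead, IDI1 was again higher without overlap, and FDPS overlapped, with 78.0 to 82.0 in DMSO and 77.7 to 89.1 in SNDX-5613.

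FDFT1 and INSIG1 had a second site near another of their TSSs in all 6 libraries. The FDFT1 site, in an intron at chr8:11807904-11808898, had relative heights of 1.31, 1.01 and 1.13 in DMSO and 1.06, 0.767 and 0.583 in SNDX-5613. Its log2 difference was -0.58 ± 0.21 (adjusted p = 0.221 in limma, unadjusted p = 0.0131), so that it did not pass the test. In SNDX-5613 replicate 3 it rested on a pileup of 7, and without that library the difference was -0.33 ± 0.16 (adjusted p = 0.3 in limma). The INSIG1 site, in an intron at chr7:155298916-155299212, had 1.83, 1.76 and 1.64 in DMSO and 1.99, 1.67 and 2.08 in SNDX-5613, a log2 difference of 0.18 ± 0.13 (adjusted p = 0.561 in limma), and of 0.12 ± 0.12 without SNDX-5613 replicate 3 (adjusted p = 0.702 in limma).

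Sites inside HMGCS1 and SREBF2 were far lower than their promoters. The HMGCS1 intron site at chr5:43306081-43306412 had relative heights of 0.356, 0.266 and 0.333 in DMSO and 0.243 and 0.274 in the deeper SNDX-5613 libraries. The first of 2 SREBF2 intron sites, at chr22:41857653-41857886, had 0.339, 0.304 and 0.44 in DMSO and 0.3 and 0.205 in SNDX-5613. In the 5 deeper libraries its log2 difference was -0.58 ± 0.26 (adjusted p = 0.261 in limma) and that of the HMGCS1 site -0.34 ± 0.26 (adjusted p = 0.571 in limma). Around FDPS, 3 further sites lay within 1 kb of a TSS of RUSC1, with log2 differences of 0.063, 0.037 and 0.13 in the same libraries.

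Positions of the strongest summit were compared next. Distances are from the canonical TSS, negative upstream. FDPS summits lay at -118, -120 and -115 bp in DMSO and at -100, -112 and -105 bp in SNDX-5613. All DMSO summits were within 3 bp of its CCAAT box at -122 to -118 bp, and all SNDX-5613 summits lay downstream of them. SREBF2 summits lay at -139, -133 and -142 bp in DMSO and further upstream at -165, -152 and -171 bp in SNDX-5613. The centre of its exact SRE was a median of 10 bp from the summit in DMSO and 36 bp in SNDX-5613.

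HMGCS1 summits lay at -323, -297 and -314 bp in DMSO. The summit at -297 bp fell in the CCAAT box at -298 to -294 bp. Those at -323 and -314 bp fell between this box and the SRE form with 1 mismatch at -342 to -334 bp. In SNDX-5613 the HMGCS1 summits lay at -271, -291 and -161 bp, all closer to the TSS. SQLE summits spread over -3, -33 and -94 bp in DMSO and lay upstream of them at -108, -138 and -106 bp in SNDX-5613. FDFT1, INSIG1, IDI1 and CYP51A1 overlapped between the groups. IDI1 had 2 alternative summits, at 84 to 127 bp in 4 libraries, by the CCAATTGG and SRE element, and at -273 and -211 bp in DMSO replicate 2 and SNDX-5613 replicate 3.

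Summits thus did not overlap between groups in 4 of 8 genes, 2 moving toward the TSS and 2 away from it, against 11.2% of 12833 protein-coding promoters. The gap between the groups was 3 bp for FDPS, 6 bp for HMGCS1, 10 bp for SREBF2 and 12 bp for SQLE. Each had an exact two-sided permutation p of 0.1, the smallest possible here. The same 4 genes did not overlap without SNDX-5613 replicate 3, against 19.4% of promoters. The members' summits ranged over a median of 42 bp among the 5 deeper libraries, and those of all promoters over 26 bp.

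**Figure D4:**
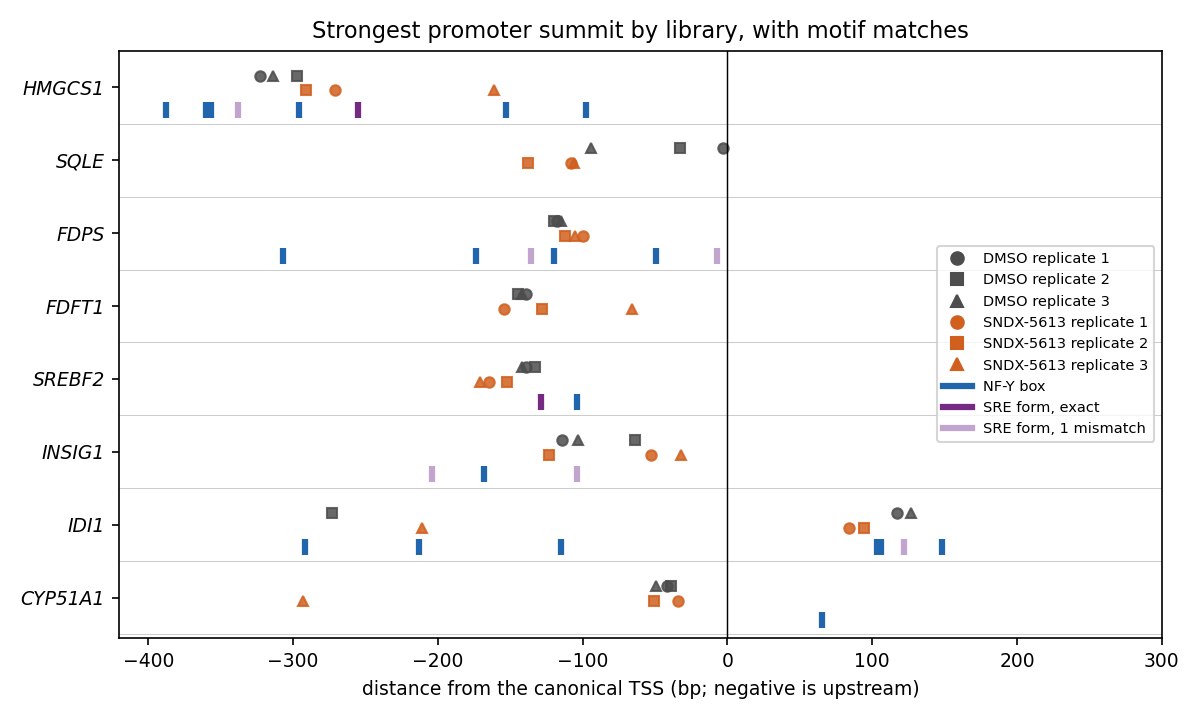
Distance of the strongest promoter summit from the canonical TSS in bp (negative is upstream) in each library, DMSO above SNDX-5613 in each row. Ticks mark NF-Y boxes and SRE forms in the 6 genes with a matched promoter. No ticks were drawn for SQLE and FDFT1. SREBF2 and SQLE summits lie further upstream in SNDX-5613 and FDPS and HMGCS1 summits further downstream.

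Elsewhere in the pathway, too, no promoter passed the test. Of 16 other cholesterol synthesis genes, all with a promoter peak in 6 of 6 libraries, 0 were called in either direction. Their median log2 difference was -0.058, with values from -0.18 (ACAT2) to 0.13 (TM7SF2). The ACAT2 site was also the promoter site taken for SOD2. The TM7SF2 peak was low, with relative heights of 0.729 to 1, and its difference had an SE of 0.178. EBP, a sterol isomerase, was the one gene of this list whose ranks did not overlap, lower in SNDX-5613. That is 1 of 16, where 8.08% of all shared sites were lower without overlap. The EBP log2 difference was -0.15 ± 0.11 (adjusted p = 0.566 in limma) and -0.071 without SNDX-5613 replicate 3 (adjusted p = 0.804 in limma). The EBP site was also the promoter site taken for an unnamed protein-coding gene.

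Of 12 SREBP control and sterol transport genes, 11 could be tested in the 6 libraries and 0 were called, with a median log2 difference of -0.034. Ranks did not overlap in 3 of these 11, all lower in SNDX-5613. Over all shared sites 8.08% were lower and 8.54% higher without overlap. ABCA1, the cholesterol efflux pump, had a peak in 5 libraries. SOAT1, which esterifies cholesterol, was lower in rank in 3 of 3 SNDX-5613 libraries, with a log2 difference of -0.43 ± 0.13 (adjusted p = 0.136 in limma, unadjusted p = 0.0044) and of -0.24 without SNDX-5613 replicate 3 (adjusted p = 0.193 in limma). SREBF1, the gene of SREBP-1, was lower in rank in 3 of 3, at -0.17 ± 0.081 (adjusted p = 0.371 in limma) and at -0.090 without SNDX-5613 replicate 3 (adjusted p = 0.645 in limma).

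By the distance between their 6 shared-site percentiles and the median of the 8 genes in each library, the protein-coding promoters most like the set were those of PSMD2 (2.53 percentile points), LPIN2 (2.58) and TRA2B (2.61). Among the 8 genes, SREBF2 lay nearest to their median at 3.51 points and CYP51A1 farthest at 29.8.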

How the data were processed

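The deposited files were a peak list for each of 6 libraries in hg38 and 2 consensus sets that were not used. Per the labels' processing notes the authors used Trim Galore 0.6.7, Bowtie2 2.3.4.1, Picard 2.20.0, SAMtools, deepTools 3.5.4 and MACS2, with peaks called in each library without pooling. Each deposited summit has a fold enrichment over its local background, a -log10 p, a -log10 q and its offset from the peak start, all as the authors' caller wrote them. A Tn5 shift, which would move summits by a few bases, was not given in the sources used here. Read counts per region were not analysed here, so that the count model of the study was not fitted. Depth as read numbers is unknown.

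Fold and p were solved for the whole-number pileup at each summit, which succeeded for 100% of summits. Summits sharing a region were merged, keeping the strongest by -log10 p, and regions of different libraries sharing 1 bp or more became sites. A gene's promoter site lay within 1 kb of any of its TSSs in GENCODE 44 and had the highest mean percentile. Log2 pileups at sites with a peak in all 6 libraries were quantile normalized and fitted in limma 3.58.1 (R 4.3.3, trended empirical Bayes, Benjamini-Hochberg over all sites). The fit was also run on simulated data, from which nothing is concluded here. For single values the exact permutation test (two-sided) was used. The methods of the study describe replicates as split dishes, which pairs the arms if the numbers 1 to 3 mark dishes. The labels do not say so, and same-numbered deviations correlated at 0.0258, -0.00333 and 0.0202. The fit and permutation tests were unpaired, with the replicate number as a block in an alternative. Python 3.11.15 was used for the rest.

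The members and lists were chosen with earlier results of these data known. Named were the 8 members, list genes called or not overlapping (at most 4 a direction and list), and the 3 most similar promoters. Some genes that the rule or lists took are not reported here by name, though list counts and medians include them. ACAT2, TM7SF2 and ABCA1 were named after their values were seen. As alternatives, a -log10 q minimum of 3 was set, each library was left out, and other scalings and measures, library weights, a replicate block, promoter sites only, other ranks, equal numbers of regions, 50% cover and a 1 kb flank were used.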

Additional observations from a re-analysis of the deposited data

How the results depend on the processing

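The number of the 8 promoters called by limma was 0 under each of the 13 alternatives, and no site at the genes was gained or lost under a stricter threshold, 50% cover, equal numbers of regions, a 1 kb flank or without any 1 library. Sites called over all shared sites were 419 in the reported fit, 137, 135 and 146 without DMSO replicate 1, 2 or 3, 265 without SNDX-5613 replicate 2, 2001 without SNDX-5613 replicate 3, 726 with median centring, 115 on -log10 p, 0 on fold enrichment (2374 at an unadjusted p under 0.05), 1485 with library weights and 180 with promoter sites only. The split was 328 higher to 91 lower in the reported fit and 973 to 512 with library weights, in which SNDX-5613 replicate 3 had a weight of 0.273. With the replicate block, 0 of 8 promoters and 572 sites were called, and no call at the 8 changed.

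Log2 differences changed sign without passing the test, among them that of FDPS, at -0.15 the largest of the 8, and the cause was not tested. On fold enrichment they were 0.19 for HMGCS1, 0.081 for SQLE, 0.048 for FDPS, 0.17 for SREBF2, 0.14 for INSIG1 and 0.14 for CYP51A1. On -log10 p they were 0.032 for HMGCS1 and 0.012 for SREBF2. With library weights they were 0.078 for HMGCS1, 0.039 for INSIG1 and 0.058 for CYP51A1, with promoter sites only 0.0030 for HMGCS1, 0.0034 for INSIG1 and 0.00073 for CYP51A1, and with median centring -0.046 for FDFT1. Leaving out 1 library each gave -0.11 to 0.13 for HMGCS1, -0.046 to 0.034 for FDFT1, -0.071 to 0.0095 for SREBF2, -0.065 to 0.049 for INSIG1 and -0.081 to 0.071 for CYP51A1. IDI1 stayed positive in all 13.

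The median percentile of the 8 was higher by 0.948 points in SNDX-5613 than in DMSO, by 7.22 when ranked by fold enrichment, and lower at -1.91 in the own lists, where list lengths differ. Leaving out 1 library gave 0.0735 to 1.48. Genes without rank overlap were 2, and 1 (FDPS) in the own lists. By fold enrichment they were FDFT1 and IDI1. Without SNDX-5613 replicate 1 the summits of 6 genes did not overlap and without DMSO replicate 2 or SNDX-5613 replicate 2 those of 5, against 4 with all libraries. Among all protein-coding promoters, 11.2% had summits without overlap in the full set and 19.4% in the 5 deeper libraries. No such share is given for the other omissions, so the higher counts cannot be read as particular to these genes. The rank counts in the own lists and by fold enrichment also stand without a share.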
